A study of Sus scrofa with 70 samples.

Results

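FN1, the gene of fibronectin, was followed through 5 glands of the male pig reproductive tract in long-read and short-read RNA data. All isoforms that the long-read summary assigns to FN1 were taken, 171 of 110996 isoforms, together with the 145 FN1 transcripts among 133722 transcripts with an expression value. FN1 was selected on its number of isoforms in these data, the highest of any gene, with 139 for the next, so this number is a description and was not tested. Of the 159 FN1 isoforms that entered the short-read annotation, 17 had no expression value, and 3 Ensembl transcripts completed the 145. Testis and epididymis were sampled beside 3 accessory glands (vesicular, prostate and bulbourethral) from adult boars aged 12 months, of 2 breeds, the BMI (an inbred mini-pig line) and the DSE (Diannan small-ear pigs), neither with any treatment. Each breed and gland had 1 Iso-seq library, in which single reads cover whole transcripts, and 3 RNA-seq libraries of short reads. Whether the 3 libraries came from 3 boars is not said in the labels, so the p-values measure the spread between these samples, which may be technical.

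Fibronectin is a large extracellular matrix glycoprotein, secreted as a dimer, that binds integrins, collagens and heparin and is assembled into fibrils on the cell surface. Its single gene gives several proteins by splicing. The extra domains EDB and EDA are each encoded by 1 exon for 1 type III repeat, and the variable region (V, or IIICS) is included wholly, partly or not at all. Plasma fibronectin, made by hepatocytes, lacks EDA and EDB, whereas cellular fibronectin made by fibroblasts and other tissue cells can carry them. The V region holds a binding site for the alpha4beta1 integrin. Fibronectin is also a constituent of human semen, where it takes part in the coagulum formed with vesicular gland proteins.

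FN1 (ENSSSCG00000016174) lies on the minus strand of chromosome 15 in Sscrofa11.1, and its alternative regions are shown 5′ to 3′ because the exon use below is counted over them. The EDB exon is chr15:117689285-117689557 (273 bases, 91 codons). The EDA exon is chr15:117677940-117678209 (270 bases, 90 codons), with capitals on GAAGAAGA, a purine-rich motif known in human EDA as a splicing enhancer. That motif occurred 1 time in EDA and 0 times in EDB on the transcribed strand, and 2.07% of the cassette exons tested here hold it.
EDB: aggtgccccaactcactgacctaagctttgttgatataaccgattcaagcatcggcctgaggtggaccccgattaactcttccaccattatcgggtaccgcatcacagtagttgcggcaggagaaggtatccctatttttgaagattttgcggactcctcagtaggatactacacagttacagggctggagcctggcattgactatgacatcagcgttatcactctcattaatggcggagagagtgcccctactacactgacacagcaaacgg
EDA: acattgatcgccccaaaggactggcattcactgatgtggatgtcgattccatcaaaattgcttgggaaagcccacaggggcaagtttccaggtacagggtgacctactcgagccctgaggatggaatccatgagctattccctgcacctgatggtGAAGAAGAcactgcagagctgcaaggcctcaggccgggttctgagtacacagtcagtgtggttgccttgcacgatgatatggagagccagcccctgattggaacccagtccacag
In the 300 bases after EDB the Fox-type motif TGCATG occurred 1 time, against 0 after EDA, and 8.25% of 34659 such windows after tested cassette exons hold it.

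The V exon has its 3′ end at chr15:117669112 and begins at 1 of 3 acceptor sites. The first acceptor keeps 360 extra bases (V120, begin 117669578), the next keeps 285 (V95, begin 117669503) and the last keeps none (V0, begin 117669218), and the names give the number of amino acids added. The stretch that only V120 carries is chr15:117669504-117669578, and the stretch that V120 and V95 share is chr15:117669219-117669503.
V120 only: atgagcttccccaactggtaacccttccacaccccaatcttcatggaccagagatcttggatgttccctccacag
V120 and V95: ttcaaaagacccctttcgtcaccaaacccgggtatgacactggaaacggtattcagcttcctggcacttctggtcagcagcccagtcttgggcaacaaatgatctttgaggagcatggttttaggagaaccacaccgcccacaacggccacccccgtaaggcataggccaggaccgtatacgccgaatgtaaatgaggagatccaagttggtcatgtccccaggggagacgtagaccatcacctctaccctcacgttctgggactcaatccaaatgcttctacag
The 3 acceptor sites are shown with the first 10 bases that each leaves in the exon in capitals.
V120 acceptor: ctctaacctctcttggctagATGAGCTTCC
V95 acceptor: cttggatgttccctccacagTTCAAAAGAC
V0 acceptor: caatccaaatgcttctacagGACAAGAAGC

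Some libraries stood apart from their label and carry weight for FN1. The summed level of 20 genes high in the vesicular gland, chosen without FN1 and without the BMI prostate libraries, was 497509 to 673920 TPM (a transcript level scaled to length and to the library total) in the 6 vesicular gland libraries. It was 416694 TPM in BMI prostate gland replicate 2 but 56.1 and 29.8 TPM in the other BMI prostate libraries and 40.9 to 71.8 TPM in the DSE prostate libraries. The same library also held 89981 TPM of 20 prostate-high genes, against 292 to 478 TPM in the vesicular gland. In Iso-seq the BMI prostate library gave 7.35% of its reads to those vesicular genes, beside 5.92% and 8.20% in the vesicular gland libraries and 0.00863% in the DSE prostate library, and its prostate-high genes held 0.0148% against 0.233% in the DSE prostate library. RNA-seq tests of FN1 level and exon use are therefore given also without BMI prostate gland replicate 2 and BMI epididymis replicate 1, which has the highest FN1 level of its gland. The part of tissue from a neighbouring gland in these values was not tested.

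FN1 RNA was highest in the vesicular gland and lowest in the testis. The vesicular gland libraries had 1677, 1995 and 1756 TPM in BMI and 2058, 2552 and 2562 TPM in DSE, which put FN1 at rank 20 to 33 among all genes. The testis had 6.03, 3.38 and 5.15 TPM in BMI and 1.55, 1.69 and 1.56 TPM in DSE. No library of another gland reached the vesicular range, and all testis libraries except BMI replicate 1 lay below every library of the other glands.

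In between, the epididymis, prostate gland and bulbourethral gland overlapped. The epididymis had 365, 9.33 and 19.7 TPM in BMI and 6.0, 74.4 and 35.6 TPM in DSE. The prostate gland had 12.7, 1124 and 5.59 TPM in BMI and 19.8, 12.0 and 15.2 TPM in DSE. The bulbourethral gland had 24.0, 18.5 and 73.1 TPM in BMI and 21.0, 9.44 and 148 TPM in DSE. Each of these 3 glands thus held libraries near 10 TPM, and the highest values were BMI epididymis replicate 1 and BMI prostate gland replicate 2.

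**Figure D1:**
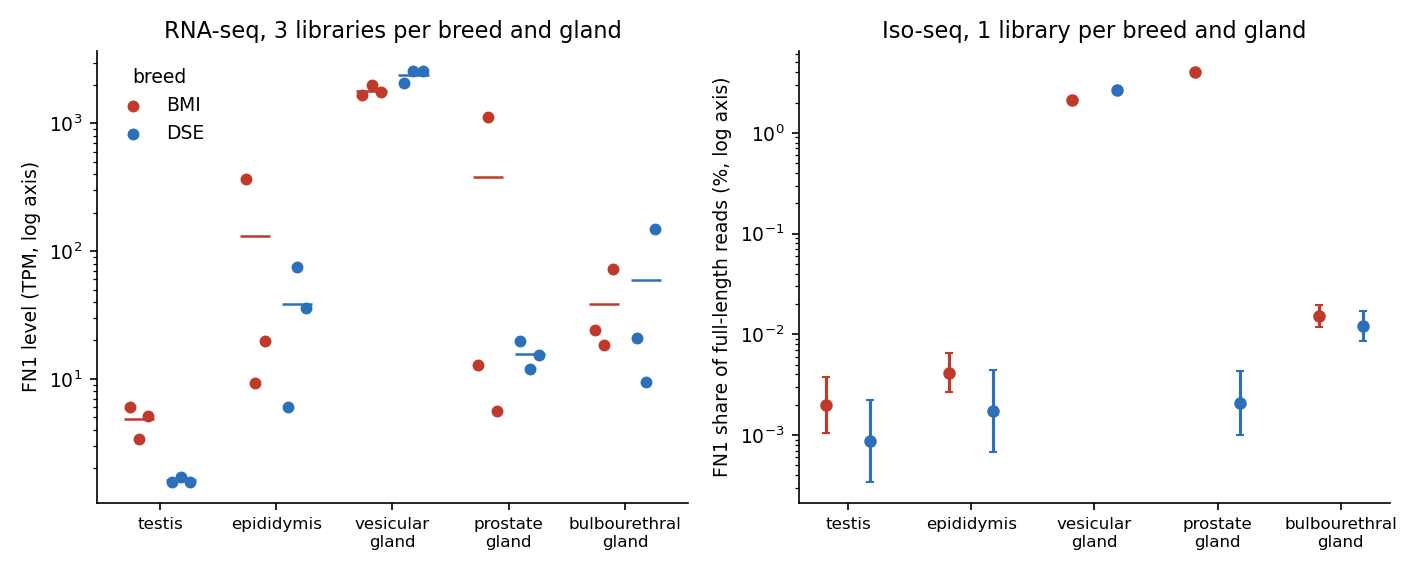
FN1 level by gland and breed, as TPM on a log axis in the 30 RNA-seq libraries (points, with group means as lines) and as percent of full-length reads in the 10 Iso-seq libraries (with Wilson 95% intervals). The 6 vesicular gland libraries lie between 1677 and 2562 TPM, above every library of another gland, and 1 BMI prostate library lies at 1124 TPM.

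FN1 differed among the glands, with a highest minus lowest gland mean of 9.07 on the log2(TPM + 1) scale (limma across 19796 genes, adjusted p = 1.01e-07), as did 93.9% of all genes. With size factors in place of TPM alone, which move the median of all genes in a library by up to 1.09 log2 units, this range was 9.90. The mean log2 level was 11.02 ± 0.26 in the vesicular gland, 5.08 ± 2.09 in the epididymis, 5.03 ± 1.41 in the bulbourethral gland, 4.79 ± 2.68 in the prostate gland and 1.95 ± 0.66 in the testis (SD, n = 6). In two-sided exact permutation tests over the 10 pairs of glands, 7 pairs passed. The vesicular gland differed from each other gland by 5.93 to 9.07 log2 units (adjusted p = 0.00433 for each), and the testis was below the epididymis, prostate gland (adjusted p = 0.00618) and bulbourethral gland (adjusted p = 0.00433, exact permutation tests). The epididymis, prostate gland and bulbourethral gland did not differ beyond their spread (adjusted p = 0.948 to 0.961, exact permutation tests). The same 7 pairs passed without the 2 high BMI libraries. Among the epididymis, prostate gland and bulbourethral gland the adjusted p was then 0.0974 to 0.463 (exact permutation tests). The mean log2 level was then 4.40 ± 1.38 in the epididymis and 3.72 ± 0.62 in the prostate gland (SD, n = 5).

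By full-length reads the vesicular gland was also above the other glands, apart from the BMI prostate library. The testis was not lowest throughout, with 0.00198% in BMI (9 reads) against 0.00173% in the DSE epididymis (4 reads). Shares are of the reads of all isoforms kept in the deposited table, which are part of each library's full-length reads. FN1 made up 2.10% of 293781 such reads of the BMI vesicular gland (95% Wilson interval 2.05 to 2.15) and 2.65% of the 318115 reads of the DSE vesicular gland (2.60 to 2.71), where it ranked first among all genes. In the bulbourethral gland it held 59 of 388569 BMI reads (0.0152%) and 32 of 265410 DSE reads (0.0121%). Testis, epididymis and DSE prostate libraries each had 4 to 19 FN1 reads. The BMI prostate library had 10552 of 263309 reads (4.01%, 3.93 to 4.08), against 7 of 336015 (0.00208%) in the DSE prostate library. FN1 in the BMI prostate library thus lay above both vesicular gland libraries, while the 20 vesicular genes given above lay between them there. These intervals cover counting error only.

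Between breeds, FN1 did not pass the test over all glands. BMI minus DSE was 0.59 log2 units (SE 0.60, 95% interval -0.65 to 1.83, limma adjusted p = 0.735), where 3.33% of genes passed, and -0.18 (adjusted p = 0.859) without the 2 high BMI libraries. The breed difference did not pass as varying among glands (adjusted p = 0.924), as 2.6% of genes did. Within the vesicular gland the breeds did not overlap, at 1809 ± 165 TPM in BMI and 2391 ± 288 TPM in DSE (SD, n = 3). The testis did not overlap either, at 4.85 ± 1.35 TPM in BMI and 1.60 ± 0.08 TPM in DSE, the opposite direction. As contrasts of the same limma fit within single glands, an analysis chosen after the values were seen, FN1 passed in none. BMI minus DSE was -0.40 log2 units in the vesicular gland (95% interval -3.17 to 2.38, adjusted p = 1, where 0.601% of genes passed) and 1.14 in the testis (-1.63 to 3.92, adjusted p = 0.790, 7.07% passed). It was 0.67 in the epididymis (adjusted p = 1, 0.773% passed) and -0.87 without BMI replicate 1 or -0.30 without DSE replicate 1. It was 1.51 in the prostate gland (adjusted p = 0.642, 0.662% passed) and -0.78 without BMI replicate 2. It was 0.02 in the bulbourethral gland (adjusted p = 1, 0.298% passed), and turned negative without BMI replicate 3 or without DSE replicate 1 or 2. This fit shares 1 spread over all glands, and the spread of FN1 is widest in the prostate gland and epididymis. An exact test of 3 against 3 libraries cannot give a p below 0.1.

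FN1 was compared with markers of the cells that could carry its RNA. The summed level of 6 fibroblast markers (COL1A1, COL1A2, COL3A1, DCN, LUM and PDGFRA, matrix proteins and a growth factor receptor) was 181 to 1228 TPM in the vesicular gland, overlapping the ranges of 428 to 8619 TPM in the epididymis, 163 to 1617 TPM in the prostate gland and 504 to 2766 TPM in the bulbourethral gland. The testis had 106 to 272 TPM. Vesicular gland libraries thus had FN1 above libraries of other glands with a like fibroblast sum in TPM. TPM is scaled to the library total, of which the 20 vesicular genes held 497509 to 673920 TPM in the vesicular gland. Like sums therefore need not mean like fibroblast content. The sum of 5 smooth muscle markers (ACTA2, MYH11, TAGLN, CNN1 and DES) was 620 to 4363 TPM in the vesicular gland, 2291 to 20837 TPM in the epididymis, 206 to 3485 TPM in the prostate gland, 150 to 649 TPM in the bulbourethral gland and 136 to 287 TPM in the testis. Their median for the vesicular gland minus the other glands was 1.12 log2 units, beside -0.69 for all genes. It was -0.42 for the fibroblast markers and 0.45 for the epithelial markers given next. All 5 smooth muscle markers had their highest gland mean on the log2 scale in the epididymis. The sum of 4 epithelial markers (EPCAM, KRT8, KRT18 and CDH1) was 558 to 955 TPM in the vesicular gland, 732 to 1217 TPM in the epididymis, 951 to 1637 TPM in the prostate gland, 1500 to 2056 TPM in the bulbourethral gland and 9.97 to 38.7 TPM in the testis, and 1 of the 4, the adhesion gene CDH1, had its highest gland mean in the vesicular gland (160 TPM). The part of these cell types in the FN1 level was not tested. BMI epididymis replicate 1, with FN1 at 365 TPM, had the highest fibroblast sum of all libraries, 8619 TPM, while its vesicular gene sum was 8611 TPM, or 1.39% of the vesicular mean, with FN1 at 17.4% of it. In BMI prostate gland replicate 2, FN1 was at 53.5% and the vesicular genes at 67.4% of the vesicular mean.

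Within single glands, FN1 and the fibroblast sum, both as log2(TPM + 1), gave r = 0.89 in the epididymis (exact permutation p = 0.025, rho = 0.943, p = 0.0167, n = 6) and r = 0.84 in the bulbourethral gland (exact permutation p = 0.0306, rho = 0.886, p = 0.0333, n = 6). Neither passed over the 5 glands compared (adjusted p = 0.0764 for r and 0.0833 for rho in both, exact permutation tests). Without the 2 libraries farthest from the median of the fibroblast sum, r was 0.59 in the epididymis and 0.80 in the bulbourethral gland. Without the high BMI library, as a description over the 5 libraries left, r was 0.75 in the epididymis (rho = 0.9) and 0.993 in the prostate gland (rho = 1). In the vesicular gland r was -0.55 (exact permutation p = 0.264, rho = -0.657, p = 0.175, n = 6), in the prostate gland 0.42 (exact permutation p = 0.344, rho = 0.829, p = 0.0583, n = 6) and in the testis 0.06 (exact permutation p = 0.883, rho = 0.371, p = 0.497, n = 6). Germ cell markers summed to 22494 to 98697 TPM in the testis, and Leydig cell markers to 17754 to 61438 TPM, so the testis libraries carried their labelled tissue. In these bulk samples, fewer cells of a type and less RNA per cell cannot be told apart.

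**Figure D2:**
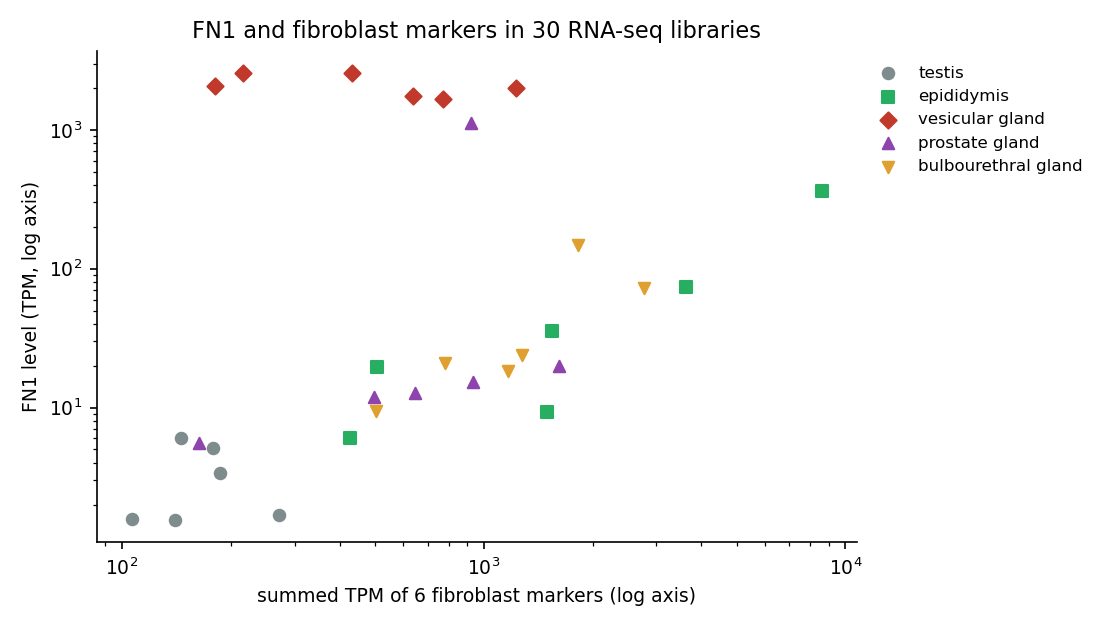
FN1 TPM against the summed TPM of 6 fibroblast markers in the 30 RNA-seq libraries, both on log axes, coloured by gland. The vesicular gland libraries sit at 1677 to 2562 FN1 TPM over fibroblast sums of 181 to 1228 TPM, and BMI epididymis replicate 1 sits farthest right at 8619 TPM.

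The 171 isoforms rested on few transcripts. FN1 had 25294 full-length reads, the most of any gene, and PB.7849.3 alone had 14108, PB.7849.45 had 6408 and PB.7849.22 had 2130, together 89.5%. These 3 isoforms have 44 exons each and are 8000, 7640 and 7925 bases long, and they correspond to V120, V0 and V95 without EDB and EDA. At the other end, 81 isoforms had 2 reads and 104 had 3 or fewer, in all 0.913% of the reads. Among the 20 genes with the most reads, isoform numbers had a median of 31.0 and a second highest of 67. Nearly all FN1 reads, 99.5%, came from the vesicular gland and BMI prostate libraries, and 170 isoforms had reads there. Only 51 isoforms were read in all 3 of these libraries, and 48 were read in a single library (21 in BMI vesicular gland, 10 in DSE vesicular gland and 17 in BMI prostate gland). The other 7 libraries had 134 FN1 reads over 15 isoforms.

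None of the isoforms matched an Ensembl FN1 transcript in full. By the structural categories of the deposited table, 119 had a splice site that is not annotated (36.0% of reads), 38 combined annotated sites in an unannotated way (61.0%), 12 were incomplete matches of a known transcript (3.01%) and 2 were genic (4 reads). The table gave 155 isoforms the subcategory of intron retention. A noncanonical junction was present in 71 isoforms (41.5%, against 13.6% of the isoforms of all other genes), but in 1.01% of FN1 reads (against 4.01%). A junction marked as a possible reverse transcriptase template switch was present in 14 isoforms (8.19%, against 6.38%), but in 0.340% of FN1 reads (against 3.60%).

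Transcript ends split into a main end and early ends. Within 100 bases of the gene end lay 121 isoforms with 23590 reads (93.3%), all 121 with a polyadenylation motif and 0 with 60% or more A in the genome after the end. More than 1000 bases before it lay 48 isoforms with 1688 reads (6.67%), of which 37 had 60% or more A there and 27 a motif. The early ends with most reads were PB.7849.355 (635 reads, 24 exons, 30826 bases before the gene end, 80% A), PB.7849.299 (361 reads, 10685 bases before, 90% A) and PB.7849.340 (124 reads, 18798 bases before, 100% A). Early ends held 5.78% of FN1 reads in the BMI vesicular gland, 5.47% in the DSE vesicular gland and 8.16% in the BMI prostate library (7.65 to 8.70). Reverse transcription from genomic A runs was not tested as a source of these ends.

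Nonsense-mediated decay (NMD) is the pathway that degrades transcripts whose stop codon lies well before the last exon junction. NMD was predicted by the deposited table for 105 FN1 isoforms (61.4%, against 19.99% of isoforms of other genes), and these held 24200 reads, 95.7% of FN1 reads against 9.88% for other genes. The share was 95.7% in the BMI vesicular gland (5899 of 6163), 96.7% in the DSE vesicular gland (8168 of 8445), 94.9% in the BMI prostate library (10009 of 10552), 91.5% in BMI bulbourethral gland (54 of 59) and 90.6% in DSE bulbourethral gland (29 of 32). All reads of the testis and the DSE epididymis and prostate libraries, and 17 of 19 of the BMI epididymis library, were of predicted NMD isoforms. A coding sequence was absent from 2 isoforms with 4 reads. In each of the 10 libraries, most FN1 reads were thus of isoforms with an NMD prediction.

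Most of these predictions share 1 stop position. The coding sequence of 81 isoforms, with 23958 reads (94.7%), ended at chr15:117681632, and 80 of these had an NMD prediction, while 40 isoforms with 104 reads ended at 117658843 and 0 of these had one. The open reading frame of PB.7849.3, PB.7849.45 and PB.7849.22 was 1347 codons in the genome sequence. Upstream of that stop, by 1042 bases in the genome, ends the 269-base exon chr15:117682674-117682942. Ensembl cuts a 47-base intron, chr15:117682752-117682798, out of this exon in 2 of its 3 FN1 transcripts, shown in capitals.
Exon with the Ensembl intron: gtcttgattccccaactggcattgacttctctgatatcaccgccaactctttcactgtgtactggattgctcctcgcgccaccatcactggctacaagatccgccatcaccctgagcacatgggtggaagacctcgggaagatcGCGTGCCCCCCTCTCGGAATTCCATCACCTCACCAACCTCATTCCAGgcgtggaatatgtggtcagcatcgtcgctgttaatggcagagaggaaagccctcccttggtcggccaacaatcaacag
The intron begins with gc and ends with ag in the genome. Of the 159 Iso-seq isoforms with a deposited exon structure 0 had it, and 116 of them with 24093 reads (98.2% of the reads of the 159) kept these bases in an exon.

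The RefSeq model of FN1 is also broken inside this exon, between 117682769 and 117682772, within the 47 bases. With 1 base added at this place, the frame of PB.7849.3 ran to 2179 codons, that of PB.7849.45 to 2059 and that of PB.7849.22 to 2154, each to a stop at 117658843 in the last exon, the stop of the Ensembl models. Of the 81 isoforms, 54 with 23204 reads reached the last exon in this way, at 1530 to 2360 codons (median 2075.5). PB.7849.233, which carries EDB and V120, ran to 2270 codons. The Ensembl transcript ENSSSCT00000048029 went the other way. Its frame was 2264 codons to 117658843 as annotated, and 1316 codons to a stop at 117681712 with the base added. The frame, and with it the place of the stop, thus changed with 1 base here. Whether the animals' own RNA differs there from the genome was not tested.

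By full-length reads, counted over the 159 isoforms with a deposited exon structure, EDB and EDA were rarely included in the vesicular gland. EDB was in 105 of 5889 reads spanning it in the BMI vesicular gland (1.78%, Wilson interval 1.48 to 2.15), 84 of 8151 in the DSE vesicular gland (1.03%, 0.833 to 1.27) and 101 of 9983 in the BMI prostate library (1.01%, 0.833 to 1.23). EDA was in 33 of 5855 (0.564%, 0.402 to 0.790), 24 of 8125 (0.295%, 0.199 to 0.439) and 36 of 9920 reads (0.363%, 0.262 to 0.502). In these 3 libraries EDB was the more frequent of the pair. The bulbourethral gland had EDB in 5 of 54 BMI reads (9.26%, 4.02 to 19.9) and 1 of 30 DSE reads (3.33%, 0.591 to 16.7), and EDA in 4 of 53 (7.55%, 2.97 to 17.9) and 4 of 30 (13.3%, 5.31 to 29.7). For EDA these intervals lie above those of the vesicular gland. The BMI epididymis had EDB in 4 and EDA in 2 of 18 reads, and the DSE epididymis had EDB in 0 of 4 (Wilson upper limit 49.0%).

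V inclusion was frequent, and its forms had like proportions in the 3 deep libraries. V120, V95 and V0 made up 62.7%, 10.1% and 27.2% of 5737 reads in the BMI vesicular gland, 61.1%, 9.19% and 29.7% of 7885 in the DSE vesicular gland, and 63.0%, 8.96% and 28.0% of 9612 in the BMI prostate library. The V0 interval was 26.0 to 28.3 in the BMI and 28.7 to 30.7 in the DSE vesicular gland. Among the few reads of other glands, V0 was 17.0% of 53 in BMI bulbourethral gland, 3 of 30 in DSE bulbourethral gland and 0 of 18 in BMI epididymis (Wilson upper limit 17.6%). Each breed and gland has 1 Iso-seq library, so these differences have no replicate check.

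**Figure D3:**
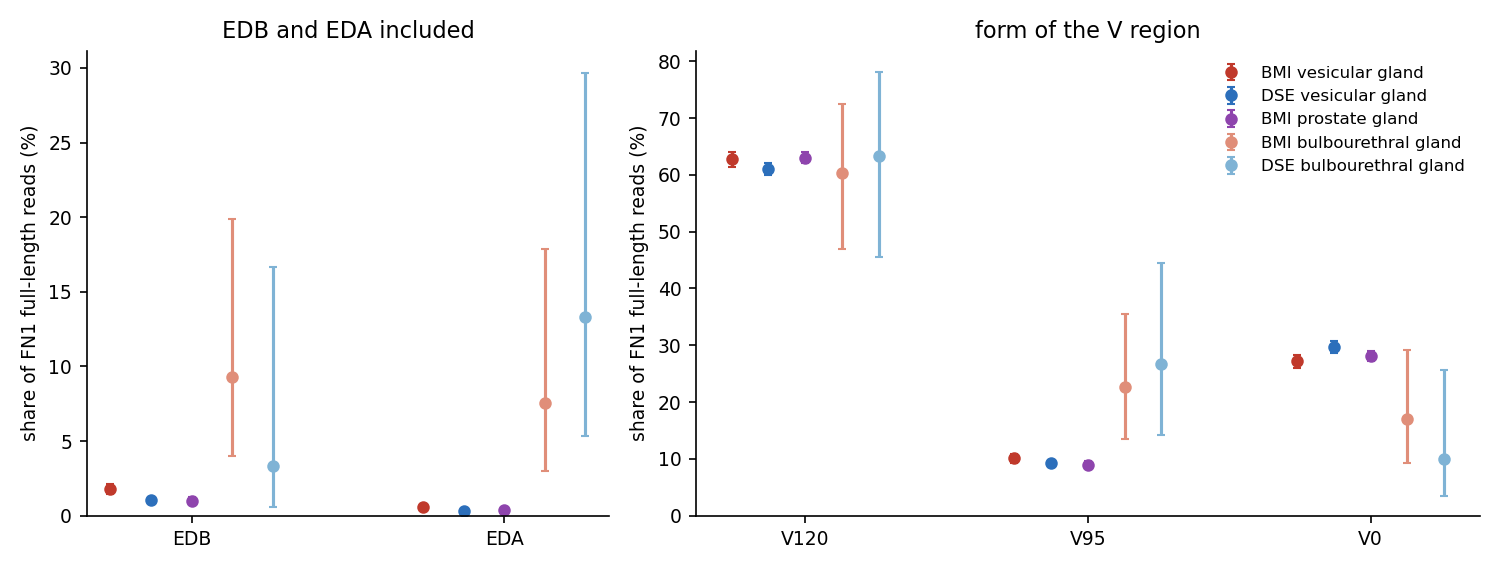
Percent of FN1 full-length reads with EDB, EDA and each V form, in the 5 Iso-seq libraries with at least 30 FN1 reads, with Wilson 95% intervals. EDB and EDA stay below 2% in the vesicular gland and BMI prostate libraries, and V120 is the most frequent V form in each library shown.

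Because 1 read covers all regions, the combinations were counted over 23355 reads. Without EDB and EDA, V120 had 14297 reads (61.2%, in 53 isoforms), V0 had 6507 (27.9%, 29 isoforms) and V95 had 2152 (9.21%, 8 isoforms). EDB without EDA was read with V120 in 182, V0 in 83 and V95 in 31 reads, so V0 made up 27.7% of reads with EDB (22.9 to 33.0) and 28.3% of those without. EDA without EDB was read with V120 in 74, V0 in 20 and V95 in 5 reads, and V0 made up 19.4% of reads with EDA (12.9 to 28.1) against 28.3% without (27.8 to 28.9). Both extra domains were in 4 reads, out of 300 with EDB and 103 with EDA. The 42 other internal exons read at least 1000 times were skipped in 0.114% to 0.428% of reads, and each of 16 further exons skipped in at least 1% of reads had at most 22 reads that included it.

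Short reads gave the exon use by gland with replicates, as percent spliced in (PSI), the TPM of transcripts with an exon as percent of those plus transcripts that skip it. EDA was lowest in the vesicular gland, at 1.16, 0.64 and 0.81% in BMI and 0.25, 0.74 and 0.73% in DSE. The epididymis had 26.1, 16.7 and 11.01% in BMI and 8.46, 12.0 and 24.3% in DSE. The bulbourethral gland had 6.14, 4.70 and 6.51% in BMI and 5.89, 5.31 and 9.96% in DSE. No epididymis or bulbourethral library overlapped the vesicular gland. The prostate gland had 13.4, 0.76 and 4.49% in BMI and 18.1, 11.4 and 19.9% in DSE, where the low value is BMI replicate 2. The testis, on under 7 TPM of FN1, had 7.50, 9.14 and 20.2% in BMI and 13.1, 27.8 and 3.03% in DSE. All testis libraries lay above the vesicular gland.

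Of 54 FN1 exons tested, EDA was the 1 that passed among glands (1.85%, where 9.36% of 35091 cassette exons passed), with a highest minus lowest gland mean of 0.157 in PSI as a fraction (limma adjusted p = 0.0190). In two-sided exact permutation tests over 50 pairs of regions and glands, EDA passed in 5: the vesicular gland against the testis, epididymis and bulbourethral gland (adjusted p = 0.0216 each) and the prostate gland (adjusted p = 0.025), and the epididymis against the bulbourethral gland (adjusted p = 0.0216, exact permutation). The 5 pairs also passed without the 2 high BMI libraries. In amount, EDA-containing FN1 was 5.17 to 19.0 TPM in the vesicular gland, against 0.505 to 94.4 TPM in the epididymis and 0.498 to 14.8 TPM in the bulbourethral gland, so these ranges overlapped. FN1 without EDA was 1619 to 2480 TPM in the vesicular gland.

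EDB had a wider spread. In the vesicular gland it was 1.48, 3.86 and 1.54% in BMI and 0.86, 0.71 and 2.04% in DSE. The epididymis had 14.9, 21.6 and 55.7% in BMI and 0, 19.2 and 19.8% in DSE. The bulbourethral gland had 2.0, 11.8 and 6.08% in BMI and 4.93, 27.7 and 6.29% in DSE. The epididymis thus reached the highest values but also held 1 library at 0. The prostate gland had 2.76, 2.16 and 0% in BMI and 4.90, 5.48 and 11.9% in DSE. The testis had 10.2, 9.14 and 17.9% in BMI and 6.70 and 4.34% in DSE replicates 2 and 3, and DSE replicate 1 had no value, with 0.72 of its 1.55 TPM of FN1 in transcripts that include or skip EDB. Over the glands EDB did not pass (range 0.201 in PSI, limma adjusted p = 0.102), but it passed without BMI epididymis replicate 1 (0.241, adjusted p = 0.0255) or without DSE epididymis replicate 1 (0.234, adjusted p = 0.0420). Of single pairs, the vesicular gland was below the testis (adjusted p = 0.0216) and the bulbourethral gland (adjusted p = 0.025, exact permutation tests). Without DSE epididymis replicate 1, the count of EDB pairs that passed was 5, and 0 pairs passed when only Iso-seq isoforms were used. Without the 2 high BMI libraries 2 pairs also passed, and EDB passed over the glands (0.241, limma adjusted p = 0.0351).

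**Figure D4:**
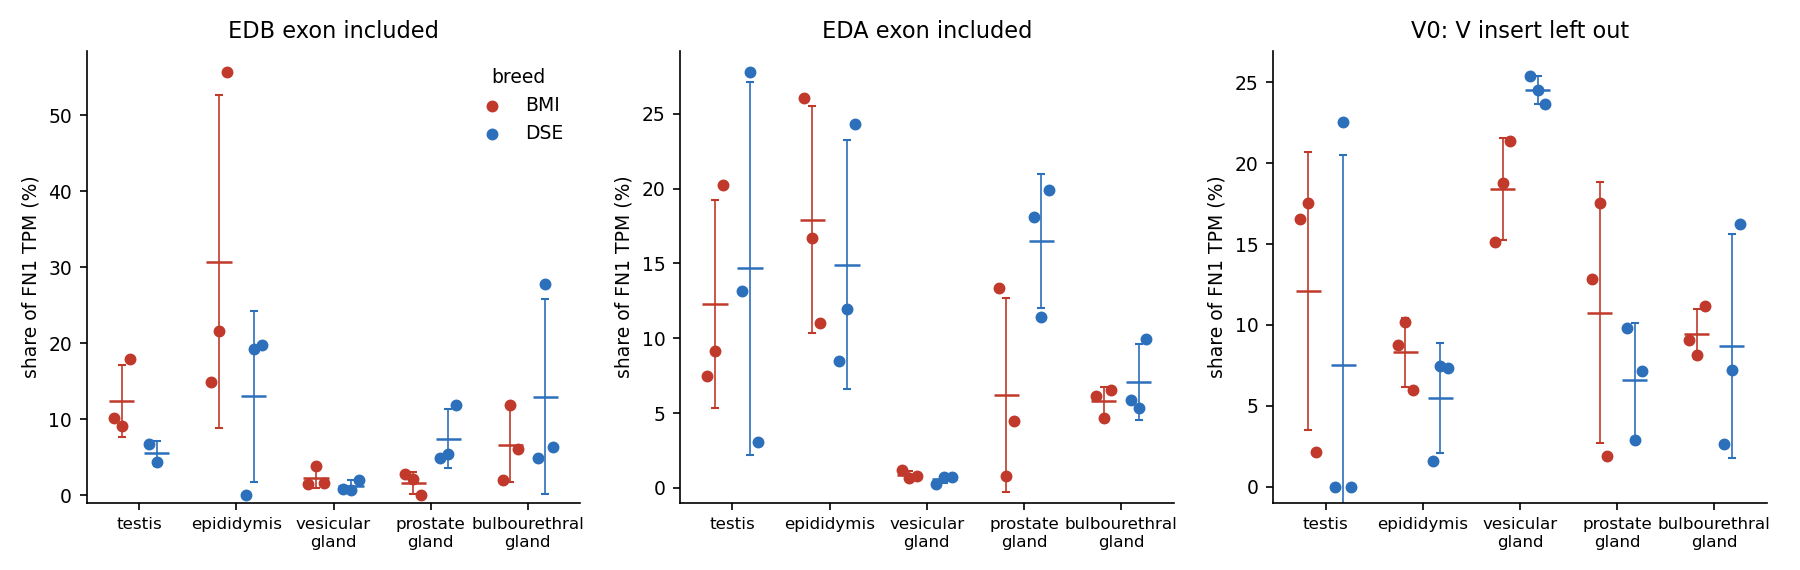
PSI of EDB and EDA and share of V0, in percent, in the 30 RNA-seq libraries by gland and breed (points, with mean and SD as bars). V0 is given as its share of the TPM of the 3 V forms. EDA lies between 0.25 and 1.16% in the 6 vesicular gland libraries, and V0 is higher there than in the epididymis and bulbourethral gland.

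V0 was higher in the vesicular gland than in 3 other glands. As a share of the TPM of the 3 V forms, V0 was 15.1, 18.8 and 21.4% in BMI and 25.4, 24.5 and 23.7% in DSE vesicular gland. It differed from the epididymis, prostate gland and bulbourethral gland (adjusted p = 0.0216 each, exact permutation tests) and not from the testis (adjusted p = 0.0955, exact permutation test). V120 was lower in the vesicular gland than in the testis and epididymis (adjusted p = 0.0216 each), and V95 was lower than in the bulbourethral gland (adjusted p = 0.025, exact permutation tests). The V95 count rose from 1 pair to 3 without DSE testis replicate 3 and to 2 without DSE bulbourethral gland replicate 2. Without the 2 high BMI libraries, V0 passed in 3 pairs, V120 in 2 and V95 in 1, as with them. The V regions, which are acceptor choices and not cassette exons, were not in the limma fit.

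Breed moved no FN1 exon past the test. Of the 54 FN1 exons 0 passed for BMI minus DSE (0.561% of all exons passed) and 0 for a breed difference varying among glands (0.148% passed). For EDA, BMI minus DSE was -0.021 in PSI (SE 0.023, 95% interval -0.069 to 0.026, limma adjusted p = 0.864), and for EDB it was 0.027 (SE 0.035, -0.045 to 0.099, limma adjusted p = 0.887). Without the 2 high BMI libraries these were -0.024 (adjusted p = 0.896) and 0.042 (adjusted p = 0.865, limma). In the vesicular gland the breeds did not overlap in V0, at 18.4 ± 3.15% in BMI and 24.5 ± 0.86% in DSE, or in V120, at 72.6 ± 3.19% and 66.0 ± 0.54% (SD, n = 3). Full-length reads had V0 at 27.2% and 29.7%, and V120 at 62.7% and 61.1%, in the same order of breeds. Neither V difference was tested, since the limma fit holds cassette exons only and an exact test of 3 against 3 libraries cannot go below p = 0.1. The breeds also did not overlap in EDB in 2 glands, in opposite directions and given as values only. EDB was 1.64 ± 1.45% in BMI and 7.44 ± 3.90% in DSE prostate gland. In the testis it was 12.4 ± 4.79% in BMI and 5.52 ± 1.67% in DSE, the latter over 2 libraries.

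Single transcripts were less certain than the gene. Of the 145 FN1 transcripts, 55 reached 1 TPM in at least 3 libraries and were tested. Of these 48 passed among glands (limma on transcripts, 87.3%, where 73.7% of all 64661 transcripts passed), 47 of them highest in the vesicular gland, 0 passed between breeds (3.22% of all) and 2 passed for a breed difference varying among glands (2.38% of all). Since a filter on level keeps transcripts that are high in 1 gland, the 48 add nothing to the gene's own difference.

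The transcript split of the short reads departed from the full-length reads. The 84 transcripts with 3 or fewer full-length reads held 44.7% of FN1 TPM in the vesicular gland and 0.731% of the reads, and the 3 isoforms with the most reads held 48.4% of the TPM. PB.7849.80, a transcript of 15 exons and 2967 bases with 2 full-length reads, had a mean of 366 TPM (17.4%) in the vesicular gland. It was a larger part of FN1 in some libraries elsewhere, such as 14.7 of 24.0 TPM in BMI bulbourethral gland replicate 1. In BMI epididymis replicate 3 it was 11.7 of 19.7 TPM. In that bulbourethral library 23.9 TPM lay behind EDA and 19.8 TPM behind V, but 9.13 TPM behind EDB. Its EDA and V values thus rest in part on a transcript with 2 full-length reads. DSE vesicular gland replicate 1 stood apart, with PB.7849.3 and PB.7849.45 listed at 0 TPM and PB.7849.80 at 827, PB.7849.282 at 451 and PB.7849.173 at 279 TPM. PB.7849.3 had 247 to 957 TPM in the other vesicular libraries. In that replicate 755 of 2058 TPM lay behind the EDB value.

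**Figure D5:**
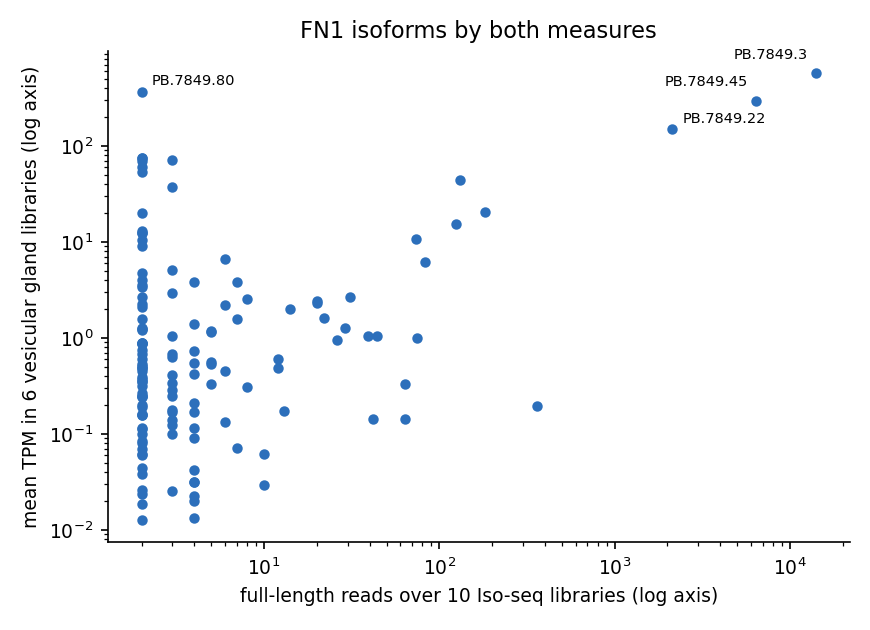
Mean TPM in the vesicular gland against full-length reads for the 136 FN1 isoforms above 0.01 TPM, both on log axes. PB.7849.3, PB.7849.45 and PB.7849.22 are high on both axes, and PB.7849.80 has 366 TPM at 2 reads.

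Genes that work with fibronectin were compared by the gland of their highest mean on the log2(TPM + 1) scale, which was the vesicular gland for 3.60% of all 19796 genes tested, the epididymis for 30.2%, the testis for 43.5%, the bulbourethral gland for 17.0% and the prostate gland for 5.62%. Of 13 receptor genes, 12 had a row and 11 passed among glands (limma, where 93.9% of all genes passed), 10 were highest in the epididymis and 0 in the vesicular gland. ITGA5, the alpha subunit of the main fibronectin receptor, had gland means of 48.8 ± 50.3 TPM in the epididymis and 21.6 ± 14.4 TPM in the vesicular gland (SD, n = 6, as for the genes that follow), and ITGAV, a subunit of other fibronectin-binding integrins, had 45.5 ± 20.4 and 4.95 ± 2.92 TPM. SDC2, a heparan sulphate co-receptor, did not pass. Of 13 matrix partners and enzymes 11 passed, 9 were highest in the epididymis and 1, CCN2, which did not pass, in the vesicular gland, although its mean in TPM was higher in the epididymis (126 against 112 TPM). Whether these counts differ from those of all genes was not tested. FBLN1, a fibronectin-binding fibulin, had 420 ± 195 TPM in the epididymis and 189 ± 156 TPM in the vesicular gland. SPARC, a collagen-binding matricellular protein, had 984 ± 1050 and 202 ± 120 TPM, and 590 TPM in the epididymis without BMI replicate 1. THBS1, thrombospondin, had 1058 ± 166 TPM in the bulbourethral gland and 15.2 ± 26.3 TPM in the vesicular gland, where it was 4.50 TPM without BMI replicate 2.

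Of 15 splicing factors 14 had a row and all 14 passed among glands, and 0 were highest in the vesicular gland (3.60% of all genes were). SRSF5, an SR protein, had 35.0 ± 10.04 TPM in the vesicular gland and 144 ± 55.8 TPM in the epididymis, RBFOX2, which binds the TGCATG motif, had 12.6 ± 4.52 and 38.1 ± 23.8 TPM, and ESRP1, an epithelial splicing regulator, had 19.3 ± 6.30 and 32.6 ± 17.4 TPM. ESRP2, its paralog, went the other way with 10.5 ± 4.94 and 7.47 ± 2.10 TPM. All 8 NMD factors passed (93.9% of all genes did) and were highest in the testis, where 43.5% of all genes were highest, such as UPF3A with 68.7 TPM there and 0.692 TPM in the vesicular gland, and SMG1, the kinase of the pathway, with 420 and 93.3 TPM. The median of vesicular gland minus the other glands was -0.38 log2 units for receptors, -0.61 for matrix genes, -0.75 for splicing factors and -1.17 for NMD factors, beside -0.69 for all genes. None of the genes in these 4 lists passed between breeds (3.33% of all genes did).

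The genes whose level most resembled FN1 over the 30 RNA-seq libraries were named by Pearson's r of log2(TPM + 1), among 16840 genes and as a description, since the points share glands and breeds. They were RGS4, a regulator of G-protein signalling (r = 0.957), ENSSSCG00000061116 (r = 0.943), GCNT1, a glycosyltransferase of mucin-type glycans (r = 0.938), ENSSSCG00000002980 (r = 0.935) and SAMHD1, a dNTP hydrolase (r = 0.935). RGS4 had a mean of 69.7 TPM in the vesicular gland and 1.44 TPM in the testis, and ENSSSCG00000002980 had 74484 TPM in the vesicular gland. Without the 2 high BMI libraries, r was 0.928 to 0.955 for these 5 genes.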

How the data were processed

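The study sequenced 5 glands of 2 pig breeds with 10 Iso-seq, 30 RNA-seq and 30 small RNA libraries (70 samples, and the small RNA was not used here). Per the file headers and the methods, the authors deposited full-length read counts per isoform, aligned to susScr11 (with GMAP in the methods, GSNAP in the submitters' processing notes) and classified by SQANTI3, and TPM per transcript from Salmon (1.9.0) on Ensembl plus Iso-seq isoforms without incomplete matches. The percent of A after each transcript end is also a deposited column. The labels give rRNA depletion and the methods poly-T beads for RNA-seq, so the RNA selection is uncertain. STAR (2.7.10a) and Bowtie (1.3.1) are named in the submitters' processing notes. The isoforms kept in the table held 231413 to 458697 reads per Iso-seq library, which is less than the library's depth, and TPM keeps no depth. TPM splits reads among near-identical isoforms by estimation.

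TPM was summed per gene. Tests used limma 3.58.1 (R 4.3.3) on log2(TPM + 1), with at least 1 TPM in 3 libraries and 1 term per breed and gland, Benjamini-Hochberg adjustment over all features, and a threshold of 0.05. PSI needed 1 TPM behind a value and a difference of 0.1 to be called. Pairs of glands used two-sided exact permutation tests (scipy 1.17.1), where 6 against 6 libraries cannot go below p = 0.00216. Scripts were tested on simulated data. EDB and EDA were named by a rule, the repeat-sized cassette exons most often skipped, and isoforms by read number. Members and lists were chosen with earlier results of these data known. The replicate numbers were not used to pair samples in the main tests. Of 60 same-number pairs of glands in 1 breed, 22 correlated above 0.1 (median r 0.0445, highest 0.383). This cannot decide whether glands came from the same boars, and the exact tests treat libraries as independent. Alternatives were other pseudocounts, filters, size factors, a logit of PSI, a replicate block and each library left out, and leaving out 2 BMI libraries and the breed contrasts within single glands were chosen after seeing the data. Sequences were read from the Sscrofa11.1 reference.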

Additional observations from a re-analysis of the deposited data

Results flagged for a closer look

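In groups of 6 libraries (5 for EDB in the testis), 3 values of 30 groups of values examined stood far from the others of their gland. For normally distributed values about 1 in 20 groups would, and TPM and percents over 2 breeds need not be so distributed. FN1 was 365 TPM in BMI epididymis replicate 1, with 74.4 TPM next. FN1 was 1124 TPM in BMI prostate gland replicate 2, with 19.8 TPM next. EDA was 9.96% in DSE bulbourethral gland replicate 3, with 6.51% next.

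The breed difference of 2 of 55 FN1 transcripts (3.64%) varied among glands by limma's interaction test, near the 2.38% of all transcripts. The count was 0 with a pseudocount of 0.1, 1 with the replicate block and 1 without the 2 high BMI libraries. For PB.7849.173 the range of BMI minus DSE over the glands was 5.94 log2 units (adjusted p = 0.0135), with 0, 2.37 and 4.06 TPM in the BMI and 279, 33.4 and 46.4 TPM in the DSE vesicular gland, where 279 TPM is DSE replicate 1, whose transcript split stood apart. For PB.7849.221 it was 1.37 (adjusted p = 0.0313), with 0, 1.21 and 1.35 TPM in BMI and 4.62, 3.79 and 2.31 TPM in DSE.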

How the results depend on the processing

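Of 129 values of 41 results under 11 alternatives, 113 were counted as unchanged, and 583 of 594 were with 1 library left out. For a test this means the same direction and the same side of the threshold. For counts of pairs or transcripts it allows a limited change, so single members could cross the threshold. EDA pairs, for example, went from 5 to as many as 6 with 1 library left out and were counted as unchanged. Without both high BMI libraries, the FN1 breed difference was -0.18 (adjusted p = 0.859), and -0.87 within the epididymis (adjusted p = 0.761) and -0.78 within the prostate gland (adjusted p = 0.732, limma), EDB passed among glands (0.241, adjusted p = 0.0351) and 1 transcript passed for the breed difference among glands. That count was 0 with a pseudocount of 0.1 and 1 with the replicate block. Without a filter on level, 75 transcripts passed among glands and 1 between breeds. EDB passed on the logit scale (3.46, adjusted p = 0.0263), and 0 of its pairs passed with Iso-seq isoforms only. With 1 library left out, EDB ranged from 0.139 to 0.241 among glands and from 2 to 5 pairs (5 without DSE epididymis replicate 1), V95 from 1 to 3 pairs, and EDA from 0.134 to 0.174 (adjusted p = 0.00445 to 0.0406, limma). The breed difference of FN1 ranged from 0.13 to 0.87 over all glands, from -0.87 to 1.70 within the epididymis, from -0.78 to 2.92 within the prostate gland and from -0.79 to 1.13 within the bulbourethral gland. With each isoform counted once, the NMD share was 67.5% in BMI vesicular gland, 61.8% in DSE vesicular gland and 62.7% in BMI prostate gland, and with at least 5 reads per isoform it was 96.2% and 97.1% in the vesicular glands. With the replicate block, FN1 differed by 9.07 among glands, EDA had adjusted p = 0.0327, EDB 0.0840, and 47 transcripts passed among glands (limma). EDB could not be fitted on 5 TPM behind PSI, without NMD isoforms or without either of 2 testis libraries. The causes were not tested. Under 7 TPM of FN1 in the testis limits its exon use.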
